A study of Mus musculus with 14 samples.

Results

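The peaks of Suz12 and of the histone mark H3K27me3 in DMSO-treated K27M cells were set against each other, to measure how much of the mark lies on called Suz12 sites, how far it runs past them and how much of it lies far from any. The 3 peak lists concerned, 1 for Suz12 and 2 for H3K27me3, hold 21583 regions, out of 100123 in the 12 lists of the series. They comprise 1252 Suz12 peaks, 2351 H3K27me3 peaks in replicate 1 and 17980 in replicate 2, and were chosen by their antibody, genotype and treatment alone.

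The study applied chromatin immunoprecipitation with sequencing (ChIP-seq) to cultured mouse cells that the labels call PDGF neural stem cells and the design text calls mouse DIPG cells, after the childhood brainstem tumour diffuse intrinsic pontine glioma. The K27M cells express histone H3.3 with the K27M change, in which the lysine that carries the mark is replaced by methionine, and the H3WT cells express wild-type H3.3. Both genotypes were grown in serum-free medium with epidermal and fibroblast growth factors and received DMSO, the vehicle, for 12 days, or EPZ6438, an inhibitor of the methyltransferase Ezh2, at 3 uM for 12 days. What drives the histone or PDGF in these cells, and whether each genotype is 1 clone, is not given in the sources used here. Nothing in the labels says that replicates 1 and 2 came from separate cultures, so the spread between them may be technical.

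Suz12 is a core subunit of Polycomb repressive complex 2 (PRC2), whose catalytic subunit Ezh2 places methyl groups on lysine 27 of histone H3. Eed, another subunit, binds the finished trimethyl mark and stimulates Ezh2, so the mark can be copied outward from the places where PRC2 first settles. Those places are mostly CpG-rich promoters of developmental regulators. Ring1b belongs to the second Polycomb complex, PRC1, which binds many of the same genes. H3.3 K27M is known to lower H3K27me3 in tumour cells overall while some domains keep it.

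The lists differed greatly in length. K27M Suz12 covered 3.96 Mb with a median peak width of 2.0 kb, and the K27M H3K27me3 lists covered 13.5 Mb in replicate 1 and 65.5 Mb in replicate 2. The H3WT lists held 631 Suz12 peaks, and 13358 and 59899 H3K27me3 peaks. Nearly all peaks of replicate 1 overlapped a peak of replicate 2, so the short list lies almost wholly within the long one. Sequencing depth is unknown, and a place with no called Suz12 peak is not a place shown to lack Suz12. Every list starts at peaks of 1001 bp, so narrower enrichment was not listed. Peaks on the X chromosome made up 8612 of the 17980 in replicate 2 and 198 of the 2351 in replicate 1. Of 35 marker genes of neural, glial, microglial, endothelial and mesenchymal cells, 3 carried the mark at a gene end in both libraries: Pdgfra, a glial progenitor receptor, Dcx, a neuronal protein, and Flt1, an endothelial receptor. Sox2, Olig2, Nes and the other 8 progenitor markers carried none in either library, nor did any microglial marker. Peaks do not measure expression.

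Promoters show what kind of sequence lies under the mark with and without Suz12. RefSeq promoter windows on assembly GRCm38.p6, running from 250 bases before to 50 bases after each transcription start, were read in the direction of the gene, with every CG dinucleotide in capitals. Hoxd10, a limb and trunk patterning factor, lies at chr2:74691641-74691940 on the plus strand, and Twist1, a mesoderm factor, at chr12:33957421-33957720 on the plus strand. Both windows had a Suz12 peak and the mark in both libraries. The window of Cdkn2a, the gene of the cell cycle inhibitors p16 and p19, at chr4:89294570-89294869 on the minus strand, had the mark in both libraries and its nearest Suz12 peak 0.347 kb away. These 3 hold 22, 27 and 45 CG dinucleotides. Where a gene has more than 1 window, the one with the most CG was taken, as for Cdkn2a, which has 2.
Hoxd10: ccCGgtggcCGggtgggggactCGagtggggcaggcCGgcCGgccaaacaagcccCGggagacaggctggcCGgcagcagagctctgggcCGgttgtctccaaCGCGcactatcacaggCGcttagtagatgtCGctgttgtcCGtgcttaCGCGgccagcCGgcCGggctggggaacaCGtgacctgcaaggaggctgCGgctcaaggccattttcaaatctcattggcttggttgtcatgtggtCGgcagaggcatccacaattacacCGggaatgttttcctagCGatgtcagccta
Twist1: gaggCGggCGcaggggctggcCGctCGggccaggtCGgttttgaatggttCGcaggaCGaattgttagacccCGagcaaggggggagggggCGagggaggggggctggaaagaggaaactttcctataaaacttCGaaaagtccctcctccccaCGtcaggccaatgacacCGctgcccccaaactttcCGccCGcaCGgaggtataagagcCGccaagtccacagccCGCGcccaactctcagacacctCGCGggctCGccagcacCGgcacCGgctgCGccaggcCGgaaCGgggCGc
Cdkn2a: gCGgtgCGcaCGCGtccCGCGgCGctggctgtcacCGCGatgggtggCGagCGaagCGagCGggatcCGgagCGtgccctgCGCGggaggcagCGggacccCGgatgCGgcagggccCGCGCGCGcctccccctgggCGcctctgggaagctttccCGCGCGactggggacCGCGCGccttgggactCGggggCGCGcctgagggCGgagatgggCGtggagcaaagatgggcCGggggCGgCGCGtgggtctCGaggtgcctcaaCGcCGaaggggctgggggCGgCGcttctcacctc

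The next 3 windows stand in marked regions far from Suz12. Tbr1, a cortical neuron factor at chr2:61804203-61804502 on the plus strand, was 7057 kb from the nearest Suz12 peak and holds 7 CG dinucleotides. Fezf2, another cortical factor at chr14:12345816-12346115 on the minus strand, was 12432 kb away and holds 20. Zfx, an X-linked zinc finger gene at chrX:94123358-94123657 on the minus strand, was 235 kb away, holds 39, and had the mark on this window in replicate 2 and not in replicate 1. Zfx too has 2 windows, and the one with the most CG was taken.
Tbr1: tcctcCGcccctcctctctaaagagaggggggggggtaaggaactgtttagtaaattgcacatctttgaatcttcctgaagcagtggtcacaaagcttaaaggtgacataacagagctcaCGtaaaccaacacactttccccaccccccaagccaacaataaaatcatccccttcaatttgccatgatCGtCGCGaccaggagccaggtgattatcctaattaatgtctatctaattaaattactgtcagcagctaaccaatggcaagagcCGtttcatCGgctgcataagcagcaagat
Fezf2: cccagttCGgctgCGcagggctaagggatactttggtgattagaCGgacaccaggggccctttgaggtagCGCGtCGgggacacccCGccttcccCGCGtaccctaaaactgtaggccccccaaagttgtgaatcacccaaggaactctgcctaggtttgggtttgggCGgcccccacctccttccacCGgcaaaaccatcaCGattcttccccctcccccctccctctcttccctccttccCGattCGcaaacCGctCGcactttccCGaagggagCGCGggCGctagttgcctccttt
Zfx: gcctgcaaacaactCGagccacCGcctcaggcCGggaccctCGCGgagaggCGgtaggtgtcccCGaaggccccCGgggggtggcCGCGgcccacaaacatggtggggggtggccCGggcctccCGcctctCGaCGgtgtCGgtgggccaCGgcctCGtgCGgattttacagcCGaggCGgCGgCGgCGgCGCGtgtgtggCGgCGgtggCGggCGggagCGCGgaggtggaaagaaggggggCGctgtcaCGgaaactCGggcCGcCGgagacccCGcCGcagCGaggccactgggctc

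Across the 32585 distinct promoter windows, the median was 7 CG dinucleotides and 33.7% were CpG-rich, meaning at least 50% G and C with a CG count at least 0.6 of that expected from the base composition. The 463 windows with the mark in both K27M libraries and a Suz12 peak had a median of 20 CG dinucleotides, and 61.6% were CpG-rich. The 322 marked in both and over 50 kb from Suz12 had a median of 14, and 43.8% were CpG-rich. The 14 of these on the X had a median of 7, with 1 CpG-rich. The 203 marked in both, without Suz12 but within 50 kb of it, also had a median of 14, and 47.8% were CpG-rich. Both classes without Suz12 therefore stood between the Suz12-bearing promoters and all promoters, as a description without a test. The windows exist for 17244 of the 21631 protein-coding genes.

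**Figure D1:**
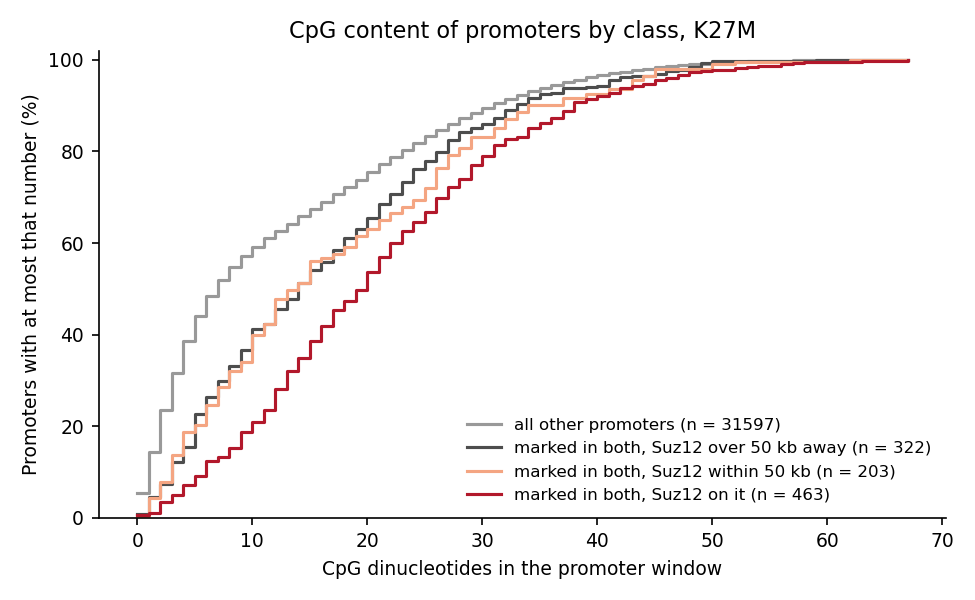
Cumulative share of promoter windows (y axis, percent) by number of CpG dinucleotides in the window (x axis), for 4 classes of promoter in K27M cells. The curve of Suz12-bearing marked promoters, with a median of 20, lies to the right of that of marked promoters over 50 kb from Suz12, with a median of 14. Both lie to the right of all other promoters. Marked promoters without Suz12 but within 50 kb of it also have a median of 14.

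A few microRNA genes lay under the mark. Of 1003 RefSeq miRNA hairpins, 18 (1.79%) lay under H3K27me3 in both K27M libraries, 8 of them also under Suz12, and 2 lay over 50 kb from Suz12. Mature sequences are printed with the seed, bases 2 to 8, in capitals, because several marked hairpins share a seed. miR-10a and miR-10b come from the Hoxb and Hoxd domains and share ACCCUGU. The miR-196 hairpins come from the Hoxa, Hoxb and Hoxc domains and share AGGUAGU. miR-449a and miR-449c, neighbours in a domain of 15.6 kb (replicate 1) and 19.5 kb (replicate 2), share GGCAGUG. The Mir7673 hairpin, on the X, was 83.7 kb from Suz12, within a region of 8.75 kb (replicate 1) and 60.04 kb (replicate 2). The other far hairpin was Mir5135.
miR-10a-5p: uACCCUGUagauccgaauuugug
miR-10b-5p: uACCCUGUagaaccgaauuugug
miR-196a-5p: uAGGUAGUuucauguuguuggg
miR-196b-5p: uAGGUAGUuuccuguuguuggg
miR-449a-5p: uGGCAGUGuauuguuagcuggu
miR-449c-5p: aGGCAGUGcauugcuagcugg
miR-7673-5p: uUUGACUGagagguaaggaaug

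A minority of H3K27me3 peaks held a Suz12 site, and these were wider at the median than the rest. In replicate 1, 687 of 2351 peaks overlapped a Suz12 peak by at least 1 bp (29.2%, exact 95% binomial interval 27.4 to 31.1%). In replicate 2 the count was 715 of 17980 (3.98%, interval 3.70 to 4.27%). The intervals cover counting error over peaks only. The number of Suz12-bearing domains was thus close in both libraries, and the share differed because replicate 2 listed many more peaks without Suz12. Both counts used the same Suz12 list, so they are not independent. Suz12-bearing peaks held 61.7% of the marked length in replicate 1 and 20.2% in replicate 2. Suz12 peaks themselves lay over 27.7% and 6.02% of the marked bases.

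Width separated the classes in both libraries. The median Suz12-bearing peak spanned 6.80 kb (replicate 1) and 12.3 kb (replicate 2). Peaks without Suz12 but within 50 kb of it had medians of 1.98 and 2.01 kb, and peaks over 50 kb from Suz12, called far here, had medians of 1.93 and 1.86 kb. Among peaks of up to 2 kb, 5.91% held Suz12 in replicate 1 and 0.0522% in replicate 2. Among peaks over 20 kb the shares were 93.4% (127 of 136) and 60.1% (223 of 371). A wider peak has more room for an overlap, and how much of the trend comes from that was not tested.

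**Figure D2:**
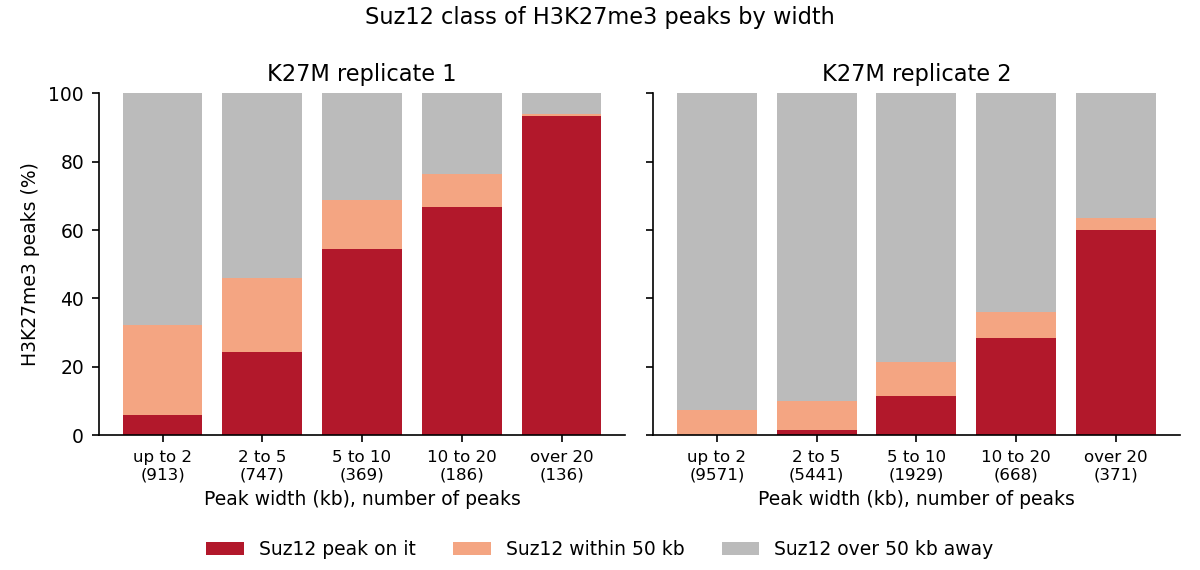
Share of H3K27me3 peaks (y axis, percent) with a Suz12 peak on them, with Suz12 within 50 kb or with Suz12 over 50 kb away, by peak width (x axis, kb, number of peaks in brackets), in each K27M library. The Suz12-bearing share climbs from 5.91% to 93.4% in replicate 1 and from 0.0522% to 60.1% in replicate 2.

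Seen from the other side, Suz12 almost always lay under the mark. H3K27me3 was present on 1163 of the 1252 Suz12 peaks in replicate 1 (92.9%, interval 91.3 to 94.3%) and on 1247 in replicate 2 (99.6%, interval 99.1 to 99.9%). The 84 peaks marked in 1 library only were all marked in replicate 2. The 5 with no mark in either were 1.00 to 1.12 kb wide. They lay at a gene end of Tnrc6c, inside Lingo1 and Gng7, near Chst11 and 281119 bp from Rps24, the nearest gene. None of the 5 overlapped a Ring1b peak or an H3WT Suz12 peak.

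The mark fell off steeply with distance from Suz12. Of the bases inside Suz12 peaks, 94.0% were marked in replicate 1 and 99.5% in replicate 2. The marked share was 76.8% and 94.6% within 1 kb of a Suz12 edge, 31.1% and 60.7% from 2 to 5 kb, and 4.99% and 18.2% from 10 to 20 kb. From 50 to 100 kb it was 0.717% and 4.48%, and from 500 to 1000 kb 0.185% and 1.72%. Replicate 2 was higher in every distance class. The K27M replicate 2 values were close to those of H3WT replicate 1 around the H3WT Suz12 peaks, which were 66.6% from 2 to 5 kb, 20.1% from 10 to 20 kb and 4.77% from 50 to 100 kb.

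**Figure D3:**
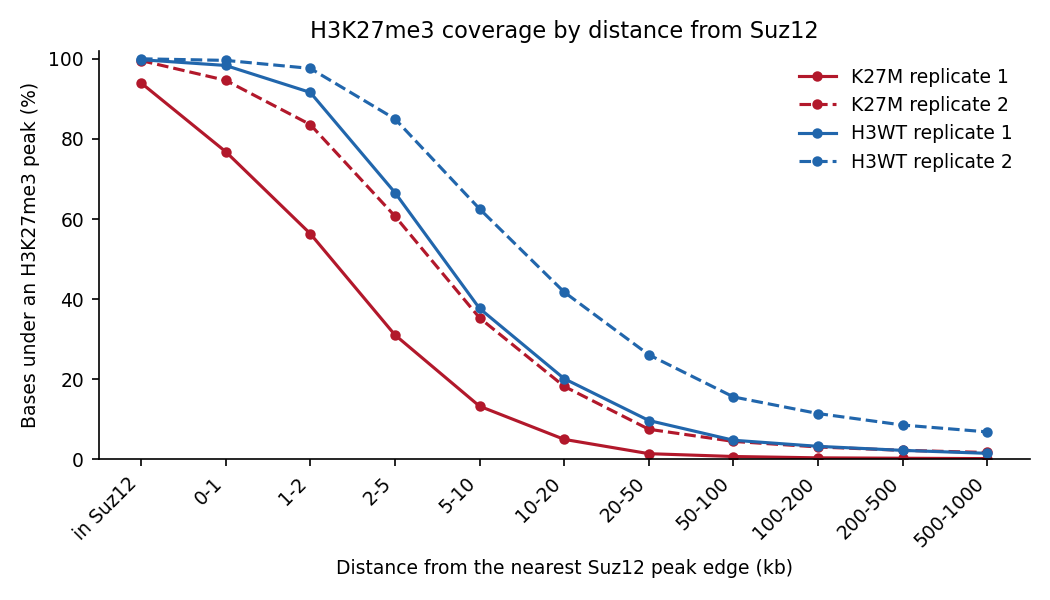
Share of bases under an H3K27me3 peak (y axis, percent) by distance from the nearest Suz12 peak edge (x axis, kb classes of unequal size), each library against the Suz12 list of its own genotype. All 4 curves fall with distance, K27M replicate 1 is the lowest throughout, and K27M replicate 2 runs beside H3WT replicate 1.

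Measured from each edge of a Suz12 peak to the end of the H3K27me3 peak on it, the mark extended 4.18 kb at the median in replicate 1 (quartiles 1.22 and 12.9 kb, 2326 sides). In replicate 2 it extended 8.11 kb (quartiles 3.13 and 18.5 kb, 2494 sides), and the farthest sides reached 159 and 173 kb. The mark stopped inside the Suz12 peak at 7.39% and 1.08% of sides. At all 1163 sites marked in both libraries the total extension was longer in replicate 2, with medians of 20.7 against 10.4 kb. The order of the sites was alike in both libraries (Spearman rho 0.907 across sites, which share domains and the Suz12 list, so no p is given).

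Several Suz12 sites often share a domain, so part of that extension runs over other Suz12 peaks. Measured only beyond the outermost Suz12 peak of each domain, the reach was 1.49 kb at the median in replicate 1 and 3.72 kb in replicate 2. Domains with 1 Suz12 peak reached 1.09 and 3.01 kb, and domains with more than 1 reached 3.16 and 6.19 kb. Suz12 peaks took up 44.9% of the length of the Suz12-bearing domains in replicate 1 and 29.8% in replicate 2. Reach over 20 kb was rare, found in 9 of 687 and 45 of 715 domains.

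The extension differed among kinds of Suz12 site. At the 893 sites (71.3%) under a Ring1b peak the median extension was 6.82 kb in replicate 1 and 11.7 kb in replicate 2, against 1.08 and 3.05 kb at the 359 without Ring1b. The 488 sites that an H3WT Suz12 peak also overlapped had 6.29 and 10.3 kb, and the 764 without one had 3.09 and 6.44 kb. Sites between genes had 6.85 and 12.5 kb, and sites at a gene end, within 1 kb of it, had 2.54 and 4.97 kb. The order was the same in both H3K27me3 libraries, but Suz12 and Ring1b come from 1 library each and sites are not replicates, so no test was made. In single-site domains, where neighbouring Suz12 peaks add nothing, the reach was 1.57 and 3.95 kb with Ring1b and 0.786 and 2.32 kb without. The H3WT-shared and gene-end contrasts were not measured in single-site domains. The part of neighbouring Suz12 peaks in them was not tested. Suz12 peaks at 283 sites held promoters of 1 strand only. Among them the mark ran farther into the gene than upstream at 166 of the 265 marked in replicate 1 and 166 of 283 in replicate 2, with medians of 2.74 against 2.21 kb and 5.23 against 4.63 kb.

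**Figure D4:**
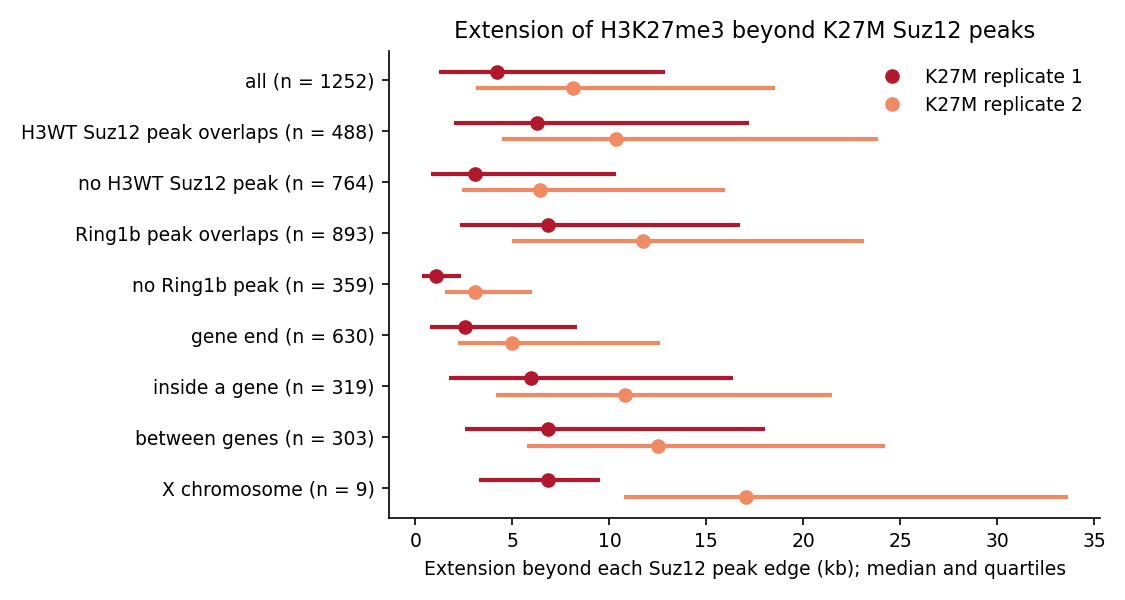
Extension of H3K27me3 beyond each Suz12 peak edge (x axis, kb, median as a point and quartiles as a line) for kinds of K27M Suz12 site (y axis, number of sites in brackets), in each K27M library. Sites without Ring1b have the shortest extension, 1.08 and 3.05 kb, and replicate 2 exceeds replicate 1 in every kind.

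By the mean width of both libraries, the widest Suz12-bearing domains were the 4 Hox clusters, which set position along the body axis. The Hoxc domain at chr15:102894751-103073160 was 167 kb wide in replicate 1 and 178 kb in replicate 2, with 26 Suz12 peaks covering 66.3 kb. The Hoxa domain was 118 kb wide in replicate 1, with 9 Suz12 peaks covering 103 kb around Hoxa5. In replicate 2 it ran on to Evx1, a neighbouring homeobox gene, and was 186 kb wide with 13 Suz12 peaks covering 117 kb. One of these Suz12 peaks, over Hoxa3 to Hoxa11, was 69.8 kb long, the widest of the list. The Hoxd domain with Evx2 was 128 and 156 kb wide with 21 Suz12 peaks, and the Hoxb domain 107 and 130 kb with 15. Next by that mean came the domains of Six6, an eye and pituitary factor (75.8 and 152 kb), Twist1 with Ferd3l (75.4 and 84.5 kb) and the cerebellar pair Zic1 and Zic4 (70.2 and 88.8 kb). The eighth was Zdbf2, an imprinted gene (60.5 and 85.8 kb). In replicate 2 alone the order differed, with Six6 wider than Hoxb. All of these overlapped Ring1b peaks. The next widest single Suz12 peaks lay at Uncx, Nkx2-5 and Lmx1b, developmental homeobox genes, with 25.7, 24.3 and 21.9 kb.

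The longest reach past the outermost Suz12 peak was at the Hoxd domain, 31.4 kb in replicate 1 and 52.4 kb in replicate 2. At Aldh1a2, which makes retinoic acid, 1 Suz12 peak of 1.90 kb stood in a domain of 34.2 and 71.8 kb, with a reach of 22.6 and 49.7 kb. At Iqch, 1 Suz12 peak of 1.05 kb had a reach of 29.2 and 29.8 kb. The Zic1 and Zic4 domain had 30.2 and 39.3 kb, the Fezf1 and Cadps2 domain 29.2 and 36.0 kb, and Mab21l2, a developmental gene, 28.1 and 34.1 kb. The reach was longer in replicate 2 at all 6.

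At the level of genes, 979 of 21631 protein-coding genes had the mark within 1 kb of a gene end in both K27M libraries. Of these, 538 also had a Suz12 peak at a gene end, 2.49% of all genes, and 441 had none, 2.04% of all genes. Of the 441, 101 had Suz12 within 50 kb and 340 did not. Suz12 stood at a gene end of 586 genes. The remaining 47 were marked in replicate 2 only, and 1, Tnrc6c, was marked in neither. Ring1b was at a gene end of 70.1% of the 538, 25.6% of the 340 far genes and 5.64% of all genes. The widest mark at the gene was 8.99 and 14.5 kb at the median for the 538, and 2.66 and 6.88 kb for the 340.

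Developmental factor lists held the most Suz12. All 39 Hox genes were marked in both libraries and 34 had Suz12 at a gene end. Of those without, Hoxa2, Hoxb1, Hoxb3 and Hoxd1 are genes near the 3′ ends of their clusters and lay 2.03 to 24.3 kb from a Suz12 peak. Of 101 other homeobox and paired-box genes, 85 were marked and 66 had Suz12. Alx1, a craniofacial factor, lay in a domain of 52.7 and 70.2 kb with 4 Suz12 peaks, and Otp, a hypothalamic factor, in one of 41.7 and 57.1 kb. Of the 19 marked without Suz12 at an end, Pax3 and Dlx5, 6.30 and 7.53 kb from Suz12, lay in domains that hold it elsewhere. Irx5, 310 kb from Suz12, had 14.9 and 34.9 kb of mark.

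Of 62 mesoderm and endoderm factors, 45 were marked in both libraries and 34 had Suz12. Hand2, a heart and limb factor, lay in a domain of 57.0 and 65.8 kb with 11 Suz12 peaks, and Nr2f2, a nuclear receptor, in one of 56.6 and 64.3 kb with 6. Gata4, a cardiac factor, had no Suz12 peak within 1 kb of its ends but 10 in its domain of 46.4 and 50.7 kb. Hand1, the heart factor related to Hand2, was 1456 kb from any Suz12 peak and had 21.1 and 28.0 kb of mark. Of 61 ligands, receptors and effectors of developmental signalling (Fgf, Hedgehog, Bmp, TGF-beta and Wnt), 30 were marked in both and 24 had Suz12. Wnt10a stood in a domain of 25.2 and 31.0 kb with 3 Suz12 peaks. Dkk1, a secreted Wnt inhibitor, had 7.14 and 18.2 kb of mark 5545 kb from Suz12. Gli1, Wnt4 and Fgf17 had Suz12 with the mark in replicate 2 only.

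Of 46 neuronal genes, 24 were marked in both libraries, 11 with Suz12 at a gene end and 13 without, and 10 of these were far. Over all 979 marked genes, 55.0% had Suz12 at a gene end and 34.7% were far, so this list's split was near the overall one. Olig3 and Neurog2, neural bHLH factors, had Suz12 in domains of 35.9 and 51.1 kb and of 29.0 and 45.4 kb. Ebf2, Ebf3 and Nhlh2, also neuronal factors, were 651, 1880 and 1522 kb from Suz12 with 21.4 and 28.2 kb, 10.2 and 24.5 kb, and 9.69 and 21.0 kb of mark. All 3, named for their wide mark, had a Ring1b peak at a gene end. Gad2, Npy and Slc17a6, also far genes of this list, had none. Of 59 ion channel and receptor genes, 14 were marked, 8 with Suz12, such as Grin2b, a glutamate receptor subunit, with 4.46 and 13.4 kb. The other 6, such as Grik3, a glutamate receptor subunit (6.26 and 11.2 kb, 503 kb from Suz12), were far.

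The cells' own lineage genes were marked at a share near that of all protein-coding genes, of which 4.53% were marked in both libraries. Of 34 neural stem and glial progenitor genes, 2 were marked in both libraries and neither had Suz12 at an end. Pdgfra, the PDGF receptor alpha gene, had 4.60 and 9.63 kb of mark 975 kb from Suz12, and Id4, a bHLH inhibitor, had 5.73 and 8.78 kb with a Suz12 peak 1.38 kb away. Pdgfra was marked in H3WT replicate 2 and not in H3WT replicate 1. Of 23 astrocyte and oligodendrocyte genes, Bmp4 was marked with Suz12 and Slc1a2, the astrocyte glutamate transporter, without. Sox2, Olig2 and Pax6, neural progenitor factors, and the PRC2 genes Ezh2, Suz12 and Eed had no mark at a gene end in either library. None of 34 housekeeping genes was marked in both libraries.

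Cdkn2a had 6 Suz12 peaks in a domain spanning 29.5 and 30.9 kb in replicates 1 and 2, so the 2 libraries placed its borders alike. Of the other 19 cell cycle inhibitor and senescence genes, Gadd45b, a stress gene, had Suz12 and the mark (2.81 and 5.74 kb), and Cdkn1c, an imprinted inhibitor, had the mark (2.60 and 8.20 kb) 12.4 kb from Suz12. Of 39 imprinted genes, 11 were marked in both libraries. Ascl2 and Phlda2 had Suz12 within 1 kb of a gene end and the other 9 did not, 3 of which were far. Of those 9, Igf2, a fetal growth factor, had a Suz12 peak 1.37 kb from its end inside its domain of 14.4 and 15.6 kb. Kcnq1 had 3.17 and 31.5 kb with a Suz12 peak inside the replicate 2 domain, Magel2 27.6 and 30.5 kb with Suz12 42.5 kb away, and Grb10 5.15 and 21.3 kb with Suz12 4221 kb away. Of 34 Polycomb and H3K27 enzyme genes, Pcgf1, Epop and Cbx2 had mark and Suz12, and Cbx8 had mark 13.2 kb from Suz12. Sycp2 and Zpbp2 were the marked ones of 40 germ cell genes, and Flt1 the marked one of 30 mesenchymal, endothelial and microglial genes. These last 2 lists were near the share of all protein-coding genes, 4.53% of which were marked in both libraries.

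**Figure D5:**
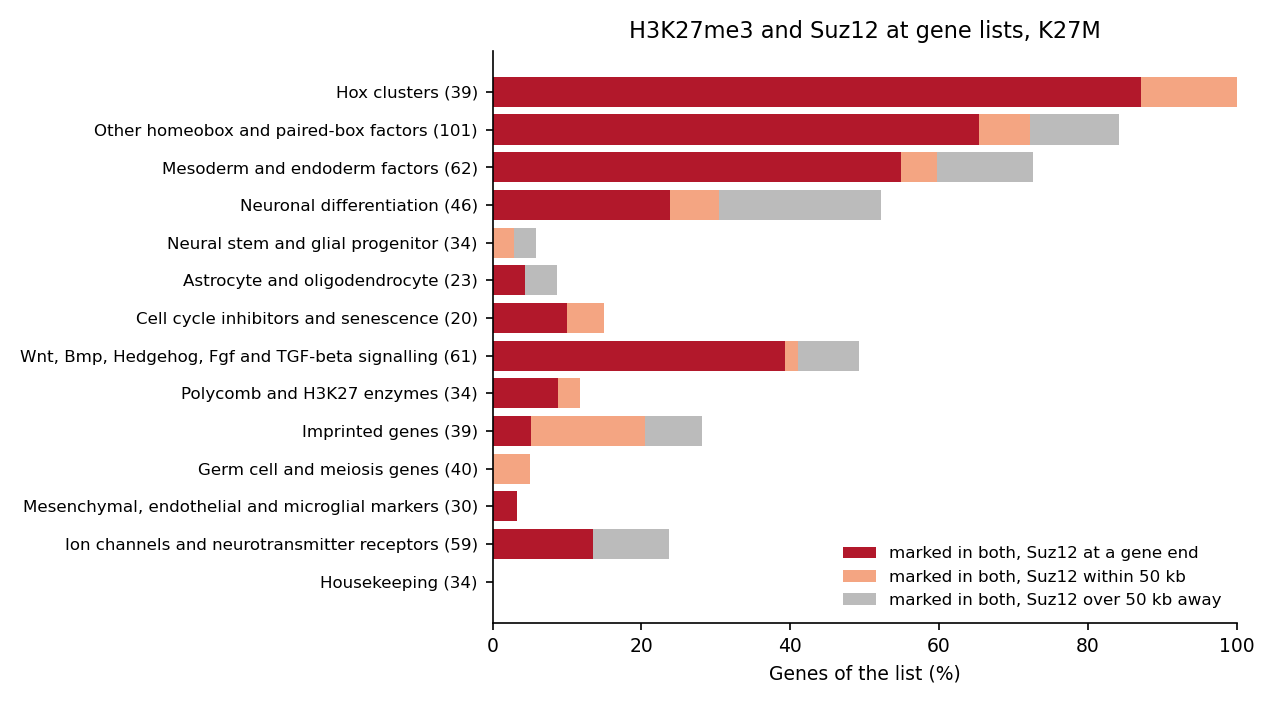
Share of the genes of each list (x axis, percent, number of genes in brackets) with H3K27me3 at a gene end in both K27M libraries, split by whether Suz12 lies at a gene end, within 50 kb or over 50 kb away. Suz12-bearing genes make up most of the marked Hox (34 of 39) and other homeobox genes (66 of 85), and 11 of 24 marked neuronal genes.

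Prdm1, which encodes a repressor needed in plasma cells and the germ line, was marked in both K27M libraries (2.66 and 7.74 kb) and in neither H3WT library, although the H3WT lists are longer. It lay 940 kb from Suz12 and had no Ring1b peak at a gene end. The predicted gene Gm46725, 764 kb from Suz12, was also marked at its gene ends in K27M alone, and it had a Ring1b peak there. The wider locus was not particular to K27M. The 27.2 kb replicate 2 domain of Gm46725 is shared with its neighbour Spag6. The replicate 1 region at Spag6 overlapped peaks of both H3WT libraries. None of the 538 genes with Suz12 at a gene end was unmarked in both H3WT libraries.

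Far regions were numerous and narrow, and like the other classes they were mostly shared with H3WT cells. Of the H3K27me3 peaks, 1189 in replicate 1 (50.6%) and 15851 in replicate 2 (88.2%) lay over 50 kb from any Suz12 peak, with 27.3% and 72.5% of the marked length. In replicate 1, 29 peaks lay 40 to 50 kb away and 24 lay 50 to 60 kb away, so few were decided by the limit. Of the 1189, 1187 were marked in replicate 2 as well. Among these 1187, 1108 (93.3%) were marked in both H3WT libraries, 345 touched a gene end, 363 lay inside a gene and 479 between genes. The nearest Suz12 peak was over 1 Mb away for 540. Of the 15851 far peaks of replicate 2, 807 were in replicate 1. The H3WT library of the same replicate number overlapped 93.2% of far, 94.5% of near and 100% of Suz12-bearing peaks in replicate 1. In replicate 2 these shares were 95.1, 97.1 and 100%. The H3WT lists are long, covering 43.6 Mb in replicate 1 and 217 Mb in replicate 2.

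Signs of Polycomb were present at some far regions. Ring1b overlapped 180 of the 1187 (15.2%) and an H3WT Suz12 peak overlapped 80 (6.74%), with 229 having at least 1 of them. The 180 with Ring1b spanned 5.18 kb at the median, and the 958 with neither 1.78 kb. Of the 80 far regions with an H3WT Suz12 peak, 65 touched a gene end. In replicate 1, H3WT Suz12 was on 6.73% of far, 1.68% of near and 42.6% of Suz12-bearing peaks. Over all far peaks Ring1b was on 15.1% in replicate 1 and 1.67% in replicate 2. Near peaks, also without Suz12, had similar shares of 16.6% and 3.04%, against 66.8% and 65.3% of Suz12-bearing peaks. The Ring1b share on Suz12-bearing peaks was alike in both libraries while those on far and near peaks were not. Both Suz12-bearing sets were defined by the same Suz12 list and set against the same Ring1b list, so their 2 shares are not independent.

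The X chromosome held many far peaks and little Suz12. It had 9 Suz12 peaks, and 6 of its H3K27me3 peaks held Suz12 in each library, out of 198 and 8612. Of the X peaks, 90.9% were far in replicate 1 and 99.5% in replicate 2, against 46.9% and 77.7% on the autosomes. X peaks were 15.1% of the far peaks in replicate 1 and 54.1% in replicate 2. Without the X, 31.6% and 7.57% of peaks held Suz12. The H3WT Suz12 list had 0 peaks on the X, so all 2305 and 16453 X peaks of the H3WT H3K27me3 lists were far. The X held 3.54 and 36.4% of the marked length in K27M replicates 1 and 2, and 10.0 and 30.9% in H3WT. The sex of the cells is not given in the labels used here.

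The 8 widest far regions by the mean of both libraries were 4 on the X and 4 on autosomes. On the X they were Pls3, an actin-bundling gene (5.30 kb in replicate 1 and 106 kb in replicate 2), Zfx (21.5 and 53.1 kb), Klhl15 (8.75 and 60.04 kb) and a region in Huwe1, a ubiquitin ligase gene (1.19 and 74.3 kb). None of these 4 held Ring1b or H3WT Suz12. On the autosomes they were Tbr1 (31.8 and 35.4 kb, 6 Ring1b peaks), the Fezf2 region (23.3 and 40.1 kb, 3 Ring1b peaks), a region 291698 bp from Ets1 (20.9 and 45.4 kb, 2 Ring1b peaks) and one 209912 bp from Prok2 (15.0 and 53.8 kb, no Ring1b or H3WT Suz12). All 8 regions were wider in replicate 2. The Tbr1 region at chr2:61802598-61838023 was 7024 kb from Suz12, and its width was close in both libraries. The far regions were also ranked by replicate 1 width alone, an order examined after the values were seen. Pls3, Huwe1, Klhl15 and the region nearest Prok2 then left the top 8. Zfx was the X region in it, and Tbr1, Fezf2, Ebf2 and Hand1 were among the autosomal ones. The Fezf2 region overlapped an H3WT Suz12 peak, and the region near Ets1 kept peaks under EPZ6438 in both libraries.

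Under EPZ6438 the K27M H3K27me3 lists shrank to 201 peaks in replicate 1 and 340 in replicate 2, and most of these lay on sites where Suz12 had been called in DMSO. That held for 166 of 201 (82.6%, interval 76.6 to 87.6%) and 214 of 340 (62.9%, interval 57.6 to 68.1%). Suz12 under EPZ6438 was not analysed here. Of the 1252 Suz12 sites, 235 and 355 still had the mark, which extended 0.822 and 2.14 kb at the median and ended inside the Suz12 peak at 38.9% and 27.7% of sides. The 230 sites marked in both EPZ6438 libraries included 229 with Ring1b in DMSO and 210 with an H3WT Suz12 peak. Of the H3WT-shared sites 43.0% kept the mark in both, and of the sites without an H3WT peak 2.62%. By region in replicate 1, 101 of 687 Suz12-bearing peaks, 1 of 475 near peaks and 12 of 1189 far peaks had an EPZ6438 peak in both libraries. Far peaks were also narrower in DMSO (1.93 against 6.80 kb at the median), and the part of width in this difference was not tested.

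Set beside H3WT cells, whose libraries were measured against the H3WT Suz12 list, K27M had a larger share of the mark on Suz12. The share of H3K27me3 peaks with Suz12 was 29.2 and 3.98% in K27M (16.6 ± 17.9%, SD, n = 2) and 3.02 and 0.661% in H3WT (1.84 ± 1.67%, n = 2). The groups did not overlap, with 3.98% the lowest K27M and 3.02% the highest H3WT value (two-sided exact permutation p = 0.33, the smallest that 2 against 2 allows, and 0.417 adjusted over 5 comparisons by Benjamini-Hochberg). The length in Suz12-bearing peaks was 61.7 and 20.2% (40.9 ± 29.3%) against 17.1 and 5.23% (11.2 ± 8.42%), and the far length 27.3 and 72.5% (49.9 ± 31.9%) against 74.4 and 91.4% (82.9 ± 12.0%). Suz12 peaks under the mark were 92.9 and 99.6% (96.2 ± 4.74%) against 99.8 and 100% (99.9 ± 0.112%). These 3 did not overlap either and have the same exact permutation p of 0.33 and the same adjusted value. The median extension was 4.18 and 8.11 kb (6.15 ± 2.78 kb) against 7.79 and 12.1 kb (9.95 ± 3.06 kb). It overlapped between the groups (exact permutation p = 0.667, adjusted 0.667). No difference could pass a 0.05 threshold in this design.

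The 2 libraries of nearest length, K27M replicate 2 with 17980 peaks and H3WT replicate 1 with 13358, gave values near each other in all 5 measures. They were 3.98 and 3.02% of peaks with Suz12, 20.2 and 17.1% of length in them, 99.6 and 99.8% of Suz12 peaks marked, 8.11 and 7.79 kb of extension, and 72.5 and 74.4% far. They carry different replicate numbers, and list length, replicate and genotype cannot be told apart here. With every list cut to its 2351 widest peaks, chosen after seeing the data, the share of peaks with Suz12 was 29.2 and 25.3% in K27M and 16.5 and 12.8% in H3WT. The Suz12 peaks under the mark then became 92.9 and 89.9% against 97.8 and 84.8%. K27M was thus lower in replicate 1 and higher in replicate 2, and the means differed by only 0.0901 percentage points. With 1 Suz12 list for both genotypes the share of peaks with Suz12 overlapped between groups, 29.2 and 3.98% against 5.59 and 1.18% with the K27M list, and 16.2 and 2.21% against 3.02 and 0.661% with the H3WT list. The shares of length on and far from Suz12 overlapped too with either list, so that their non-overlap rested on each genotype's own Suz12 list.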

How the data were processed

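ChIP-seq peak lists of cultured mouse cells were used: 9 of 12 lists, leaving out both H3WT EPZ6438 lists and H3WT Ring1b. The authors deposited 1 list per library, whose score column is 0 throughout, so only peak positions were used. Reads were aligned with Bowtie 1.1.2 to mm10, per the submitters' processing notes. Not given in the sources used here are the depth, the caller of the peaks, its cut-off and any control, and the 2 IgG libraries were not analysed here.

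Overlapping lines were merged on chromosomes 1 to 19 and X. A peak held Suz12 when it overlapped a Suz12 peak by at least 1 bp, and was far over 50 kb from one. Genes were RefSeq protein-coding genes of GRCm38.p6, marked when a peak lay within 1 kb of a gene end, of which 620 of 621 list entries matched. Binomial intervals are exact at 95%. Genotypes were compared over libraries by exact permutation. Interval code was tested on simulated data. Python 3.11.15, numpy 2.4.6, pandas 2.3.3 and scipy 1.17.1 were used.

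Members and gene lists were chosen with earlier results of these data known. Named were a fixed set of Polycomb, glioma and imprinted genes, the widest regions of each class, and up to 4 genes per list and class by marked length. Promoters and miRNAs printed are examples chosen after seeing the values. Alternatives were a 500 bp overlap, widened Suz12 peaks, a 3 kb width minimum, joined gaps, other far distances, no X, single replicates, a replicate block, a shared Suz12 list and lists of equal length. Results on some genes are not reported here.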

Additional observations from a re-analysis of the deposited data

How the results depend on the processing

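Across 50 alternatives for the K27M values, 47 stayed within 1 SD of the 2 libraries or within 1.5 times the count. With 2 libraries, each single value always lies within 1 SD of their mean, so the single-replicate alternatives could not fail. That SD is also as large as the mean for the share of peaks with Suz12, so staying within it shows little. That share, 16.6% in the mean, was 32.8% with peaks of at least 3 kb (53.0 and 12.6% in replicates 1 and 2) and 27.2% with lists of equal length (29.2 and 25.3%). Widening Suz12 by 1 kb on each side lowered the median extension to 2.66 kb, which the construction itself brings about. Requiring peaks of at least 3 kb left 370 of the 1187 far regions marked in both libraries. Cutting each list to its widest 2351 peaks lowered the share of Suz12 peaks under the mark to 91.4%. The single-library values spanned 3.98 to 29.2% of peaks with Suz12, 20.2 to 61.7% of length in them, 92.9 to 99.6% of Suz12 peaks marked, 4.18 to 8.11 kb of extension and 27.3 to 72.5% of length far from Suz12, so replicate 1 and replicate 2 each decide these values. Far distances of 10 and 250 kb gave 1413 and 888 far regions.

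Of 45 alternatives for K27M minus H3WT, 44 kept the sign, which the replicate block could not change because it leaves the difference as it is. With lists of equal length the difference in Suz12 peaks under the mark became 0.0901 percentage points. The difference in peaks with Suz12 was 14.8 points, 7.37 with the H3WT Suz12 list for both, 3.32 without replicate 1 and 26.2 without replicate 2. Under the replicate block, in which labels were exchanged within a replicate number, the differences were the same and the exact permutation p was 0.5 for all 5, the smallest it allows. The labels do not say what a replicate number shares. A 5 kb gene window gave 656 marked genes with Suz12 and 559 without. Depth is unknown, so what it limits cannot be stated.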
